A study of Mus musculus with 24 samples.

Results

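The members are 35 genes of the blood coagulation and complement systems, taken by name from the array: 20 of coagulation and fibrinolysis and 15 of complement. They are 35 of 23966 genes tested. Each of the 35 was well above background on all 24 arrays and none was saturated, so no member was lost to the filter on dim signals. Livers came from 24 male wild-type C57Bl/6J mice of 8 weeks, 1 array per mouse, in 4 groups of 6, killed at zeitgeber time 16 h. All mice had been kept on Safe 04 chow. For 24 h they had chow with plain tap water (the water group), chow with tap water holding 20% glucose, chow with tap water holding 20% fructose, or no food (fasted). Each array is an individual mouse, so the spread within a group is between animals. Values are log2 signals over the array's own 75th percentile of probe signal. A gene was called where limma's test over all genes gave a Benjamini-Hochberg adjusted p under 0.05. Levels of different probes are not comparable on this scale, so only differences between groups are compared.

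Hepatocytes make most of the plasma proteins of both systems. In coagulation, inactive proteases are cut in sequence until thrombin turns fibrinogen into fibrin, and serpins, protein C and protein S hold the sequence back while plasmin dissolves the clot. In complement, the classical, lectin and alternative routes meet at C3, and cleavage of C5 then lets C6, C7, C8 and C9 assemble into the membrane attack complex. The liver is also where many of these genes respond to inflammatory cytokines.

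The tissue label was checked first. All 8 hepatocyte markers were well above background on all arrays, and their summed linear signal was 4817 to 5810 times the array's 75th percentile in the water group and 5439 to 6151 in the fasted group. The number of probes well above background was 32519 to 36272 per array. RNA came from whole liver, so fewer cells of a type and less RNA per cell cannot be told apart in any result here.

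The promoters of the complement and coagulation members that moved most in fasting are shown so that the groups can be compared by sequence. RefSeq promoter windows (assembly GRCm38.p6) were found for 27 of the 35 members, 17 of coagulation and 10 of complement. The 250 bases before the start site are printed 5′ to 3′ on the gene's strand. Capitals mark matches to any of 3 motifs searched on both strands: TTGCNNAA (the C/EBP family), the direct repeat element of nuclear receptors such as HNF4A, and the glucocorticoid response element. Each window printed holds at most 1 match, so that none overlaps another.
C6 (chr15:4726960-4727209, plus strand): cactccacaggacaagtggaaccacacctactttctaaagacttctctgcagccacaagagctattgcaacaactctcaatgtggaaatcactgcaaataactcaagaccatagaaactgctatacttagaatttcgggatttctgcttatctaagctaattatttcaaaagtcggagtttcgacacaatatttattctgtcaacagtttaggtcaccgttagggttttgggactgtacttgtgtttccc
C8a (chr4:104876399-104876648, minus strand): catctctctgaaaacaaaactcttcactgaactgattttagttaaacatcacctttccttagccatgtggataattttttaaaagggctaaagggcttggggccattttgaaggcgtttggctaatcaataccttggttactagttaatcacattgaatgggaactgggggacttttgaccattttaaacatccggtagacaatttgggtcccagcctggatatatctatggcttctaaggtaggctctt
C8b (chr4:104766067-104766316, plus strand): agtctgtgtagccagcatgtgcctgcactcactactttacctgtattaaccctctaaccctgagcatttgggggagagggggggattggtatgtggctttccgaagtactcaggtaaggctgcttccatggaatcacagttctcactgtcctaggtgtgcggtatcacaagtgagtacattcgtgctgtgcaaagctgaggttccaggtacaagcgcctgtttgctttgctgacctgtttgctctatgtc
C9 (chr15:6445096-6445345, plus strand): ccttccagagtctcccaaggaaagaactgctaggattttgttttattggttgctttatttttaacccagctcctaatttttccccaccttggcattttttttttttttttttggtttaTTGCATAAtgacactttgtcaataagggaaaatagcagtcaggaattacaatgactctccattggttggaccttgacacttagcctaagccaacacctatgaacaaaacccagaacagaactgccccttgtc
Pros1 (chr16:62854057-62854306, plus strand): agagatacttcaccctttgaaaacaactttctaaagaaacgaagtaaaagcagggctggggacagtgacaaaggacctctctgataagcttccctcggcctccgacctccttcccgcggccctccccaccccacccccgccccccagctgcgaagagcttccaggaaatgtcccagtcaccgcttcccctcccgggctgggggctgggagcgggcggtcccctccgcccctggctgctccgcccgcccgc
Hrg (chr16:22950822-22951071, plus strand): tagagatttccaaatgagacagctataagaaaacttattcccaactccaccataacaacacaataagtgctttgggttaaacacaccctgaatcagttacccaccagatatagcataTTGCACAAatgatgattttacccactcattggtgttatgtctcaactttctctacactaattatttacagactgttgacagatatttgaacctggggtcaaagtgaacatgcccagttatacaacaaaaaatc
F11 (chr8:45262032-45262281, minus strand): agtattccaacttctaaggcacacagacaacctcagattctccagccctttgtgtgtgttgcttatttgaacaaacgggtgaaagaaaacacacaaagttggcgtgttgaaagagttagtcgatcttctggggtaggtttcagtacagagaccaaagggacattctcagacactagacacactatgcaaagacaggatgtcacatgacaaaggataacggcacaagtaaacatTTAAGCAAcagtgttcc

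C6, C8a, C8b and C9 fell together in fasting, and their windows did not hold the same matches: C9 held TTGCNNAA, and C6, C8a and C8b held none. Of the coagulation members that moved most, Hrg, which rose, and F11, which fell, both held TTGCNNAA, and Pros1 held none. Over the members with a window, TTGCNNAA was found in 5 of 17 coagulation and 2 of 10 complement windows, against 9.56% of 32851 windows in the table. The direct repeat was found in 1 coagulation window, that of F7, and in no complement window, against 0.338%. The glucocorticoid response element was in none of the 27, against 0.387%. A match is a string of letters, and binding was not measured.

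In fasting, 9 of the 15 complement members fell and none rose, while the coagulation members changed in both directions. Of the 15 complement members, 9 (60%) were lower in the fasted group and 0 were higher, where 20.9% of all genes tested were lower and 21.7% higher. These shares over all genes are the background for every count of fasting calls given here. Of the 20 coagulation members, 8 (40%) were higher and 2 (10%) lower, and 10 were not called. Over both classes 19 of 35 were called, against 42.6% of all genes. At an unadjusted p under 0.05 there were 21 of 35, against 48.5% of all genes. The median log2 fold change was -0.32 for complement and 0.055 for coagulation, against 0.020 over all genes. Under quantile normalization these medians were -0.39 and -0.026, against -0.0035. In the authors' deposited series table they were -0.39 and -0.013, against -0.0030. The coagulation median thus changed sign with the scaling, while the complement median stayed negative. Under the scaling used here, 14 of the 15 complement members had a negative value, the exception being C3. All 19 called members had the sign of the pooled value on each of the 3 array slides, every slide holding 2 mice of each group. The slides are parts of the data that gave the calls, so this agreement is a description and no separate evidence. With the slide as a block 18 members were called, F5 being lost.

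**Figure D1:**
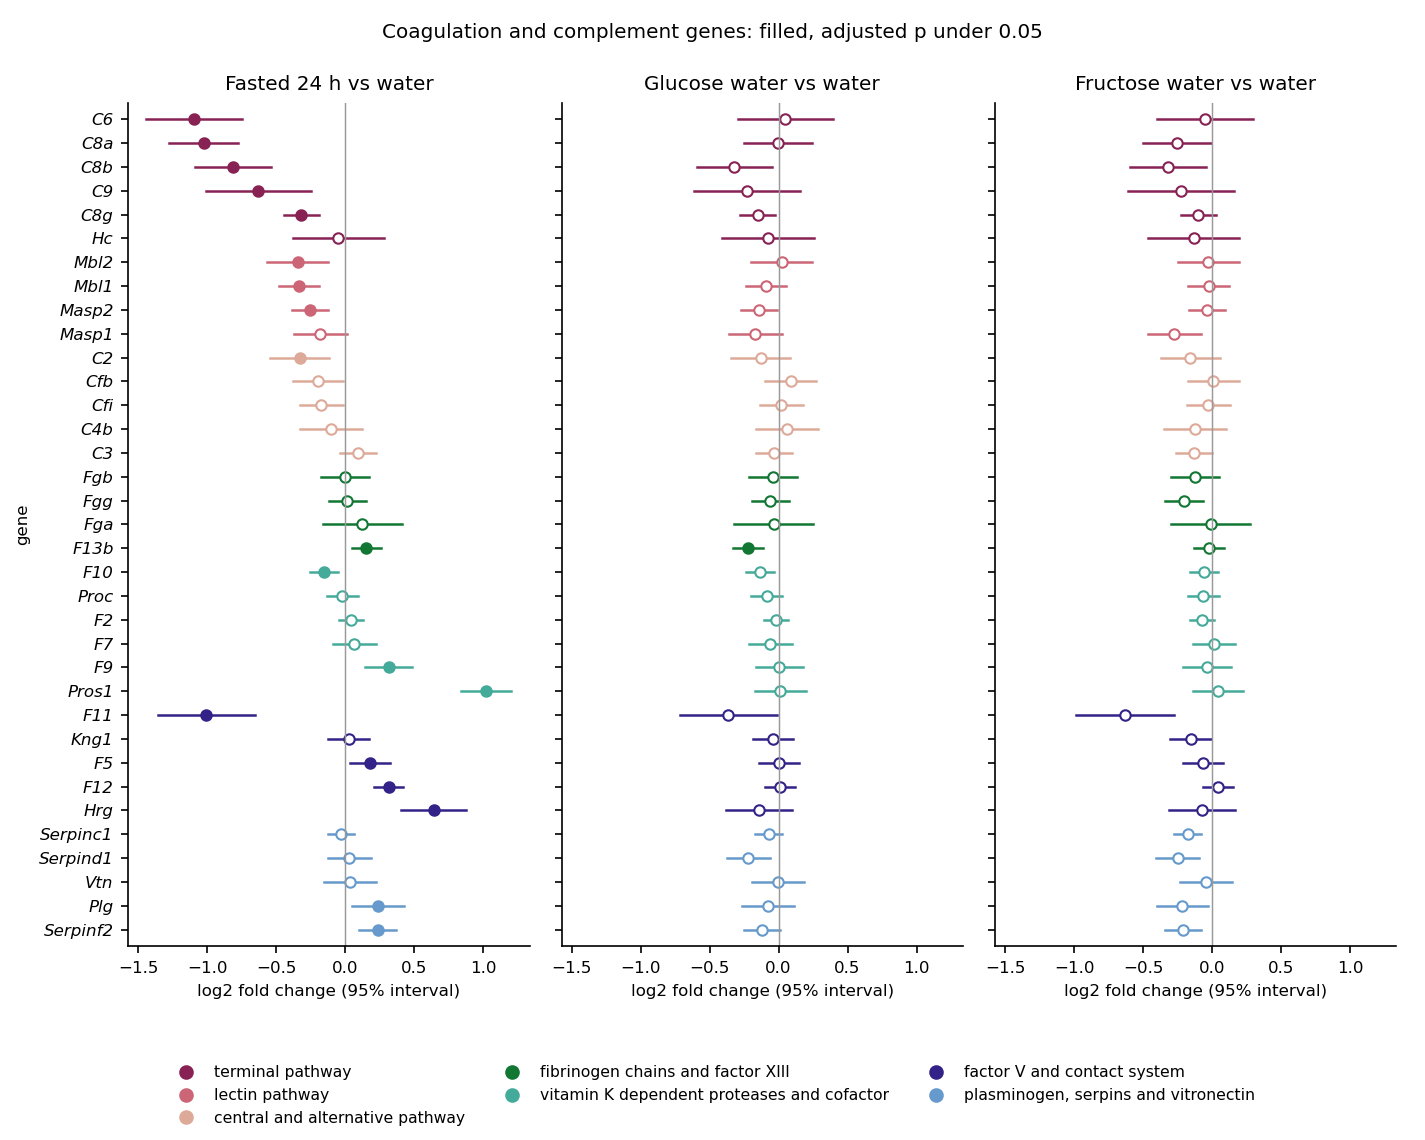
Log2 fold change of each of the 35 genes with its 95% interval, for fasted, glucose and fructose mice against the water group, coloured by role; filled points passed an adjusted p of 0.05. In fasting the complement genes at the top lie left of 0 with the exception of C3, C6 reaches -1.09 and C8a -1.03, and the coagulation genes lie on both sides, from F11 at -1.005 to Pros1 at 1.02; in the sugar groups the filled point is F13b with glucose.

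Among the members, the terminal pathway held the largest falls. It had 5 of its 6 members lower, with a median log2 fold change of -0.72, and 4 of them had no fasted mouse within the range of the water group. Over all genes, fasted and water mice did not overlap for 24.3%, with fasting higher for 12.3% and lower for 12%. C7, a terminal component that is not among the members, rose and is described with the wider complement list. C6, the first component to bind cleaved C5, ranged from 3.33 to 3.84 (median 3.58) in the water group and from 1.92 to 3.04 (median 2.49) in the fasted group. The highest fasted mouse stayed below the lowest mouse on water. The change was -1.09 ± 0.17 (log2, SE, n = 6 per group, adjusted p = 1.07e-05), 2.13-fold lower.

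C8a and C8b encode the alpha and beta chains of C8, the component that first enters the membrane. C8a ranged from 6.15 to 6.66 (median 6.41) on water and from 5.04 to 5.82 (median 5.40) in fasting. Its change was -1.03 ± 0.12 (adjusted p = 2.70e-07), with no overlap. C8b ranged from 6.56 to 6.99 (median 6.81) on water and from 5.51 to 6.13 (median 6.04) in fasting, where 1 mouse at 5.51 lay apart from the other 5, which were at 6.01 or above. Its change was -0.81 ± 0.13 (adjusted p = 2.50e-05), again with no overlap. C8a and C8b lie side by side on chromosome 4, and C8a fell by more on the brightest probe of each gene, the probe tested here. The difference between their changes was 0.21 log2 units (exact permutation test over the 12 mice, two-sided p = 0.0303, 0.0487 after adjustment over the 9 neighbour pairs compared here). This difference was tested under the scaling used here only.

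C8g, whose gamma chain is a lipocalin bound to C8 alpha, changed less (-0.32 ± 0.061, adjusted p = 0.000183), with no overlap. Under quantile normalization its value was -0.54, and in the authors' deposited series table -0.50. C9, which forms the ring of the pore, ranged from 7.21 to 8.07 (median 7.68) on water and from 6.47 to 7.56 (median 7.11) in fasting, so that the ranges overlapped, and its change was -0.63 ± 0.19 (adjusted p = 0.00800). Hc, the gene of C5, was the terminal member that was not called: -0.049 ± 0.16 with a 95% interval from -0.38 to 0.28. Its fasted mice ran from 5.83 to 6.99, wider than the 6.11 to 6.79 on water.

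**Figure D2:**
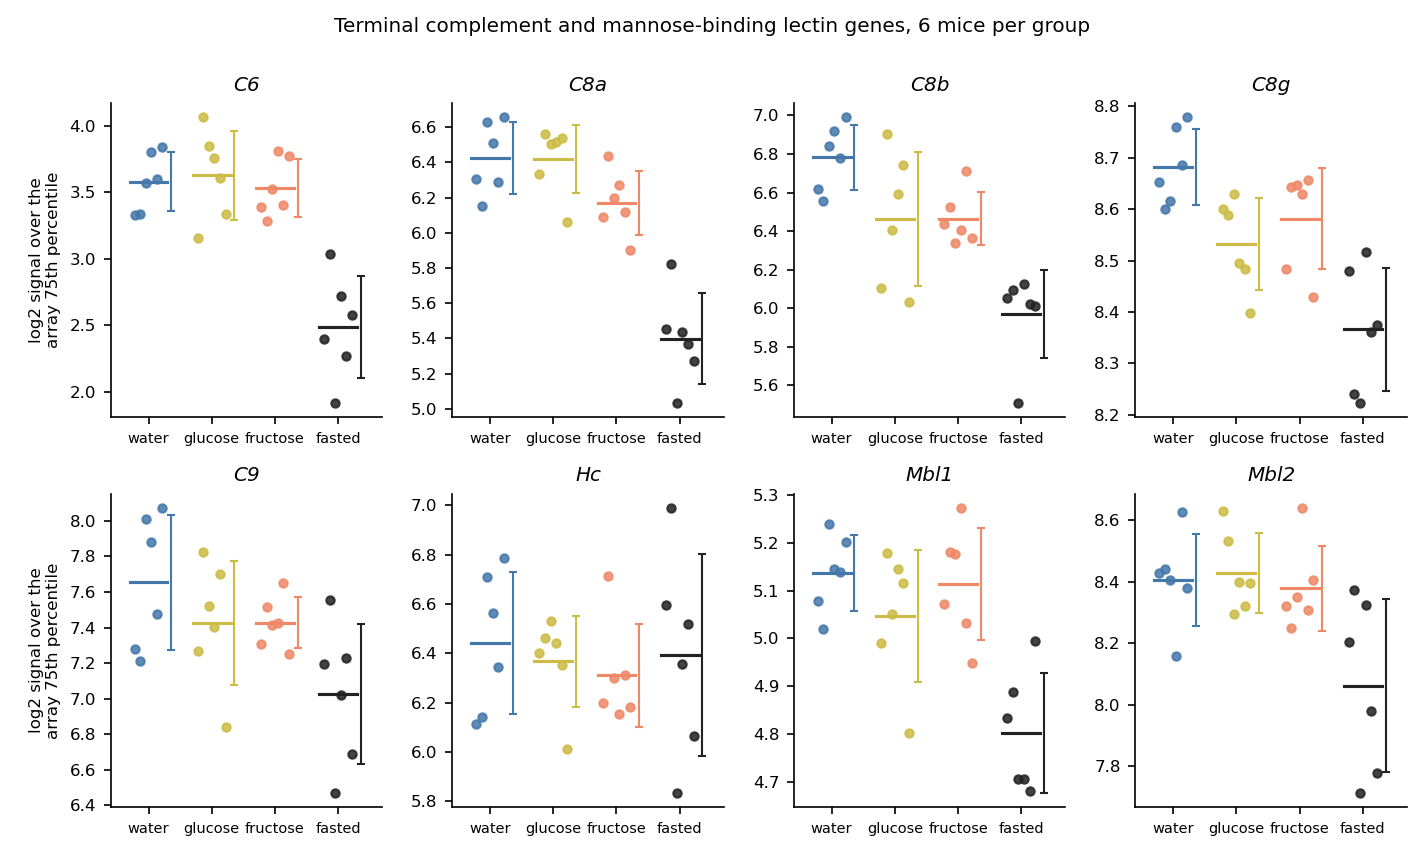
Log2 signal over the array's 75th percentile for 6 mice in each of 4 groups, 1 panel per gene with its own axis; horizontal lines are group means and bars the SD. For C6, C8a, C8b, C8g and Mbl1 all fasted mice lie below all mice on water, while Hc overlaps throughout.

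In the lectin pathway 3 of 4 members were lower. Mbl1 and Mbl2 encode the mannose-binding lectins that recognise microbial sugars. Mbl2 ranged from 8.16 to 8.63 (median 8.42) on water and from 7.71 to 8.38 (median 8.09) in fasting, with overlap, and changed by -0.34 ± 0.11 (adjusted p = 0.0109), or -0.52 under quantile normalization. Mbl1 changed by nearly the same amount with a tighter spread (-0.34 ± 0.071, adjusted p = 0.000462) and no overlap. Masp2, the protease that cleaves C4 and C2 once a lectin has bound, changed by -0.26 ± 0.063 (adjusted p = 0.00197) on its brightest probe. Masp1, which activates Masp2, changed by -0.18 ± 0.093 (adjusted p = 0.130) on its brightest probe.

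Among the central and alternative components 1 of 5 (20%) was lower, near the 20.9% of all genes. This was C2, the protease subunit of the C3 convertase of the classical and lectin routes, at -0.33 ± 0.10 (adjusted p = 0.0123). Cfb, its counterpart in the alternative route, changed by -0.20 ± 0.089 (adjusted p = 0.0808). Cfi, which inactivates C3b and C4b, changed by -0.17 ± 0.075 (adjusted p = 0.0694). Without fasted mouse 2 both passed the test, Cfb at -0.27 (adjusted p = 0.00628) and Cfi at -0.23 (adjusted p = 0.00520). Cfb, Cfi, C4b and Masp1 were also called lower under quantile normalization and in the authors' deposited series table. C4b changed by -0.10 ± 0.11 (adjusted p = 0.497), and its unused second probe also lists a transcript of the near-identical C4a. C3 changed by 0.093 ± 0.064 (adjusted p = 0.261).

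Averaged over all 15 complement genes, each fasted mouse lay between -0.68 and -0.12 (median -0.34) from the mean of the water group, and each mouse on water between -0.17 and 0.19. Fasted mouse 3 was lowest and fasted mouse 2 highest. Averaged over the 20 coagulation genes, the fasted mice lay between -0.038 and 0.27 (median 0.13) and the mice on water between -0.053 and 0.078. These means describe the mice and carry no test. They were computed under the scaling used here only. The median SD within the fasted group was 0.17 over coagulation genes and 0.21 over complement genes, against 0.077 and 0.15 on water.

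**Figure D3:**
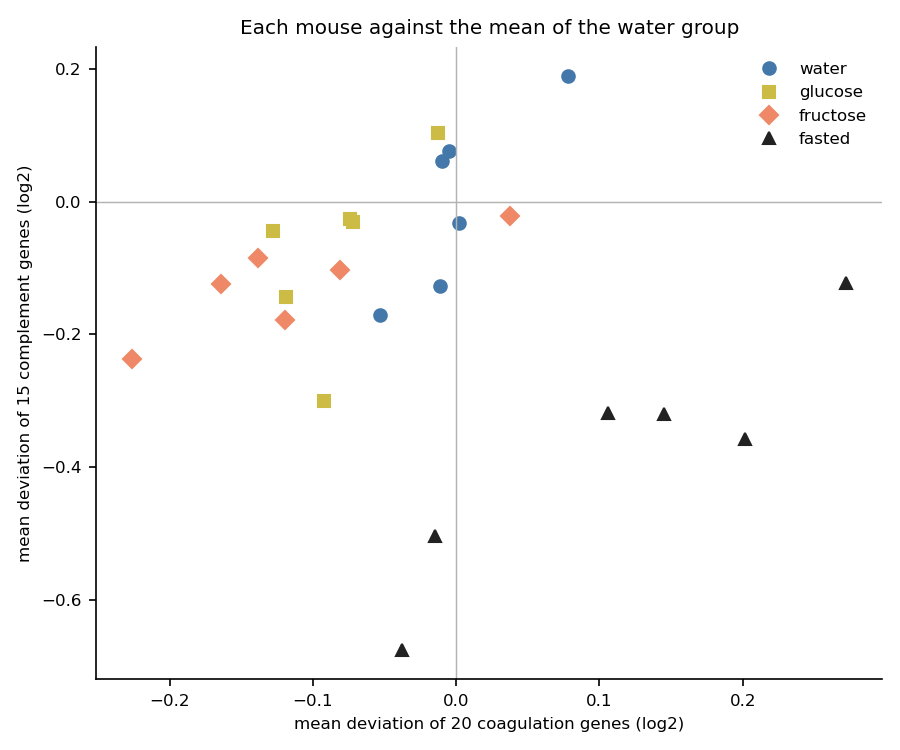
Mean log2 deviation from the water group's mean, over 20 coagulation genes (horizontal) and 15 complement genes (vertical), 1 point per mouse. The 6 fasted mice lie between -0.68 and -0.12 on the complement axis, and 4 of them lie right of every fed mouse on the coagulation axis.

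Among the vitamin K dependent proteins 2 of 6 were higher and 1 lower, too few to set apart from the 21.7% and 20.9% of all genes. Pros1 encodes protein S, the cofactor with which protein C inactivates factors V and VIII. It ranged from 4.87 to 5.11 (median 5.00) on water and from 5.74 to 6.28 (median 6.05) in fasting, with a wide gap between the groups. Its change of 1.02 ± 0.089 (adjusted p = 3.14e-09), 2.03-fold higher, was the largest rise of any member when the brightest probe stands for each gene. With the mean of its 3 probes, which disagree, Pros1 was at 0.30 (adjusted p = 0.0325), below Hrg at 0.64. F9, the protease missing in haemophilia B, ranged from 4.76 to 5.05 (median 4.86) on water and from 4.90 to 5.40 (median 5.24) in fasting. Its change was 0.32 ± 0.083 (adjusted p = 0.00339), with overlap in the lowest fasted mouse.

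F10, the protease that makes thrombin, ranged from 8.15 to 8.28 (median 8.21) on water and from 7.98 to 8.21 (median 8.04) in fasting. Its change was small, -0.15 ± 0.049 (adjusted p = 0.0152). It was -0.33 under quantile normalization and -0.31 in the authors' deposited series table, and F10 was not called under median centring (adjusted p = 0.0554). F2 (prothrombin) changed by 0.044 ± 0.042, F7 by 0.067 ± 0.075 and Proc (protein C) by -0.021 ± 0.054, and none of these passed the test. Proc was called lower under quantile normalization (-0.18, adjusted p = 0.00676) and in the authors' deposited series table (-0.19, adjusted p = 0.00434). The sign of F2 depended on the scaling of the arrays. Under quantile normalization it was -0.23 (adjusted p = 8.34e-06) and in the authors' deposited series table -0.13 (adjusted p = 0.00621).

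In the group of factor V and the contact system 3 of 5 members were higher and 1 lower. F11, the protease that activates factor IX, ranged from 4.62 to 4.86 (median 4.71) on water and from 3.45 to 4.11 (median 3.67) in fasting. All fasted mice lay below all mice on water, and the change was -1.005 ± 0.17 (adjusted p = 4.15e-05), 2.01-fold lower. Hrg encodes histidine-rich glycoprotein, which binds heparin and plasminogen. It ranged from 7.41 to 7.64 (median 7.55) on water and from 7.95 to 8.54 (median 8.14) in fasting, with no overlap and a change of 0.64 ± 0.11 (adjusted p = 7.63e-05). F12, the protease that starts the contact pathway, ranged from 7.32 to 7.44 (median 7.40) on water and from 7.51 to 7.85 (median 7.74) in fasting. Its change was 0.32 ± 0.052 (adjusted p = 2.82e-05), also with no overlap. It was 0.17 under quantile normalization (adjusted p = 0.00707) and in the authors' deposited series table (adjusted p = 0.00486).

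The other members of this group changed little. F5 was called at 0.18 ± 0.071 (adjusted p = 0.0449), but leaving out 1 mouse ended the call in 14 of 24 cases, with adjusted p from 0.0111 to 0.129. Its value was 0.087 under quantile normalization (adjusted p = 0.330) and 0.067 in the authors' deposited series table (adjusted p = 0.454). Kng1, the gene of kininogen, changed by 0.025 ± 0.070 (adjusted p = 0.819). Mice have a close copy of it, Kng2, and whether the probes tell the copies apart was not tested.

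Of the fibrinogen chains and factor XIII, 1 of 4 was higher. F13b, the carrier subunit of the clot-linking factor XIII, changed by 0.15 ± 0.052 (adjusted p = 0.0185). The call was lost under median centring (adjusted p = 0.124), in the authors' deposited series table (0.10, adjusted p = 0.108) and with only the 2 groups fitted (adjusted p = 0.0565). The 3 fibrinogen chains, which are the substrate of thrombin, were not called: Fga at 0.13 (95% interval -0.16 to 0.41), Fgb at 0.0012 (-0.17 to 0.18) and Fgg at 0.017 (-0.12 to 0.15). Under the scaling used here, these intervals leave room for at most a small change of Fgb and Fgg either way, and for a somewhat larger one of Fga. They do not include differences between scalings. For F2 the interval was -0.044 to 0.13, and its value under quantile normalization was -0.23.

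Of plasminogen, the serpins and vitronectin, 2 of 5 were higher. Serpinf2 encodes alpha-2-antiplasmin, the main inhibitor of plasmin. It ranged from 7.55 to 7.71 (median 7.63) on water and from 7.76 to 8.06 (median 7.86) in fasting, with no overlap, and changed by 0.24 ± 0.064 (adjusted p = 0.00432). It was not called under quantile normalization (0.095, adjusted p = 0.167) or in the authors' deposited series table (0.063, adjusted p = 0.406). Plg, the precursor of plasmin, changed by 0.24 ± 0.090 (adjusted p = 0.0379), and leaving out 1 mouse ended that call in 6 of 24 cases, with adjusted p from 0.00838 to 0.112. With the mean of its probes its change was 0.074 (adjusted p = 0.650).

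Serpinc1 (antithrombin) at -0.029 ± 0.047, Serpind1 (heparin cofactor II) at 0.031 ± 0.075 and Vtn (vitronectin) at 0.033 ± 0.091 were not called. Serpinc1 was called lower under quantile normalization (-0.16, adjusted p = 0.00306) and in the authors' deposited series table (-0.13, adjusted p = 0.0116). Vtn took the other sign under quantile normalization (-0.24, adjusted p = 0.0302) and in the authors' deposited series table (-0.22, adjusted p = 0.0406). Under each of these scalings 5 coagulation members were higher and 6 lower, and 13 complement members were lower. Under median centring 5 coagulation members were higher and 1 lower. Why these settings differ was not tested.

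**Figure D4:**
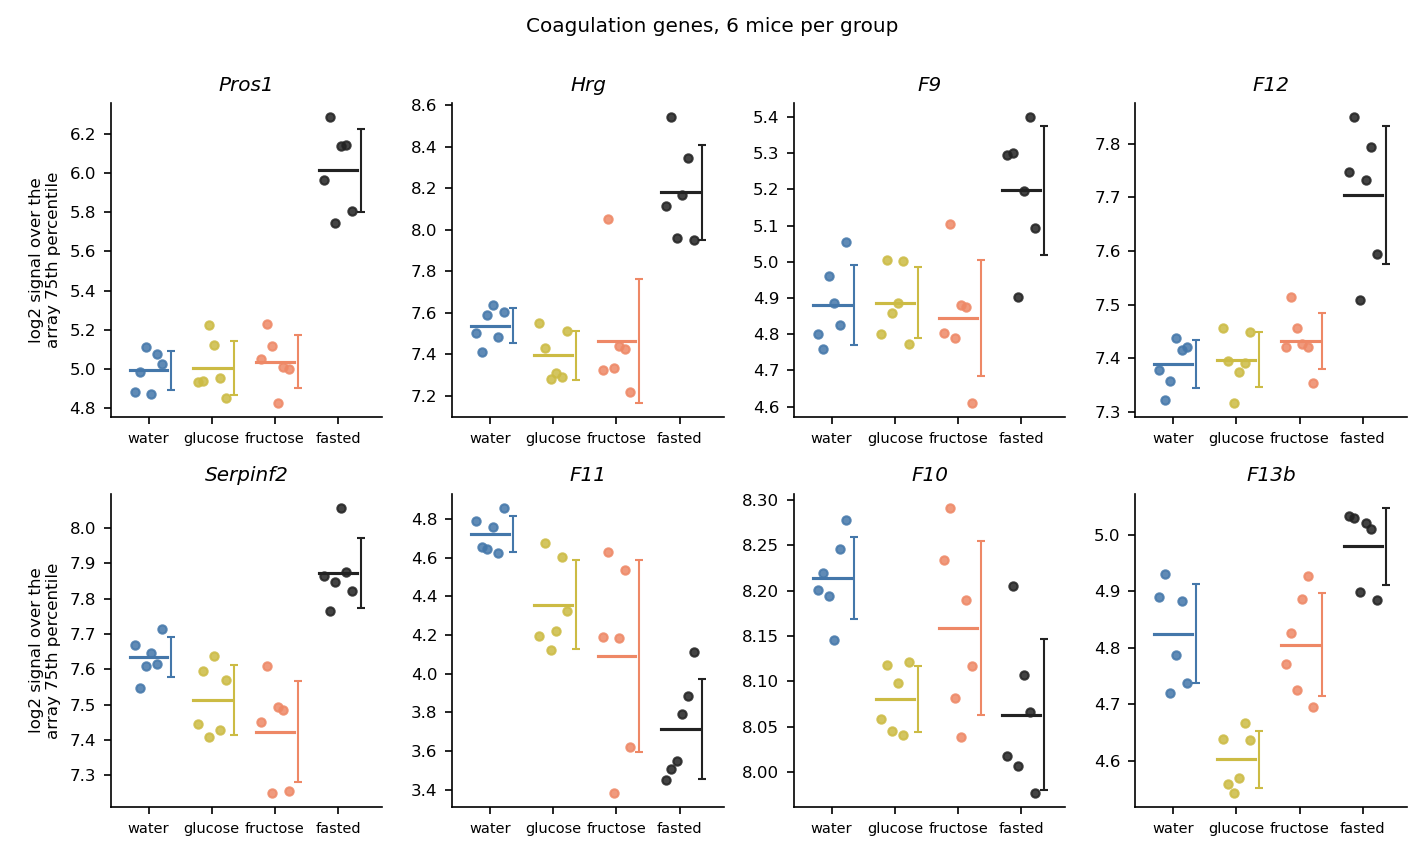
Log2 signal over the array's 75th percentile for 6 mice in each of 4 groups, 1 panel per gene with its own axis; horizontal lines are group means and bars the SD. For Pros1, Hrg, F12 and Serpinf2 all fasted mice lie above all mice on water, for F11 they lie below, and for F13b the glucose group lies below the water group.

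Several genes that lie close together changed by different amounts. Among the members and the wider pathway lists, 9 pairs lay within 100000 bases of each other in GRCm38.p6 and held a member. Each was tested for the difference between its 2 changes in fasting by an exact two-sided permutation test over 12 mice, whose smallest possible p is 0.00216. Hrg rose while its neighbour Kng1 on chromosome 16 did not pass the test, a difference of 0.62 (exact permutation p = 0.00216, 0.00649 adjusted over the 9 pairs). F11 fell by 0.85 more than Klkb1, the prekallikrein gene beside it on chromosome 8 (adjusted p = 0.00649). Also on chromosome 8, Proz fell by more than F10, with a difference of 0.29 (adjusted p = 0.00649), and F10 differed from F7 by 0.22 (adjusted p = 0.0341). Cfb and C2 differed by 0.13 (adjusted p = 0.0487). The 2 pairs of fibrinogen genes on chromosome 3 did not pass (adjusted p = 0.455 for each). All 9 tests used the brightest probes and the scaling used here, and were not repeated under other scalings. Under quantile normalization the change of Cfb was -0.38, against -0.20 here, and that of F10 was -0.33, against -0.15 here.

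For 12 members the array holds more than 1 probe, 30 probes in all, and some of them disagreed. The p-values in this paragraph are adjusted over all probes kept. Both probes of C8a (-1.03 and -0.92) and both of C8b (-0.81 and -0.79) fell. Pros1 rose on its brightest probe and on a second (1.25), at chr16:62929001-62929060 and chr16:62927997-62928056 (mm9, the build of the array design). Its remaining probe lies upstream at chr16:62898651-62898710 and went the other way at -1.38 ± 0.30 (adjusted p = 0.000653). That probe was dim, well above background in 5 of 6 mice on water and 1 of 6 fasted mice.

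**Figure D5:**
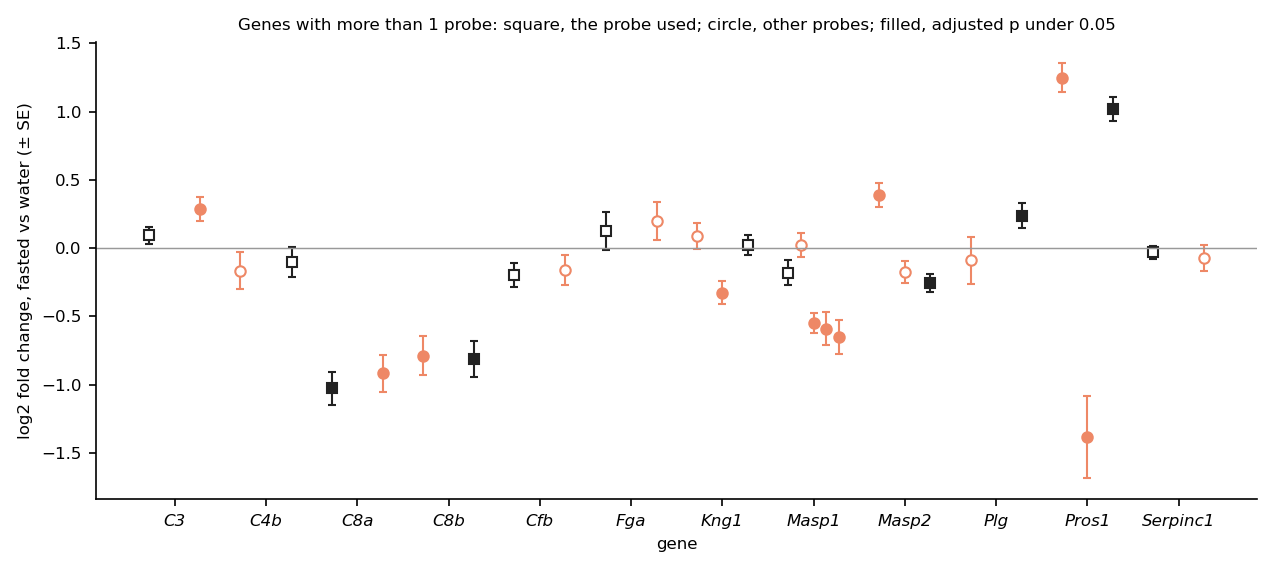
Log2 fold change of fasted against water mice with its SE for each probe of the 12 genes with more than 1 probe; squares are the brightest probes, which stand for the gene, circles the others, and filled symbols passed an adjusted p of 0.05. C8a and C8b agree across probes, while Masp1, Masp2, Kng1, C3 and Pros1 have a circle away from the square.

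Masp1 has 5 probes. The brightest, at chr16:23449609-23449668, and the next at chr16:23452460-23452519 gave -0.18 and 0.026. The 3 probes farther upstream on this minus-strand gene gave -0.55, -0.59 and -0.65, and each passed the test (adjusted p = 1.50e-06, 0.000301 and 0.000171). With the mean of its 5 probes Masp1 was called, at -0.39. Masp2 fell on its brightest probe at chr4:147978456-147978515 (-0.26) but rose on the probe at chr4:147989121-147989180 (0.39 ± 0.089, adjusted p = 0.00109), and the mean of its probes was -0.014. One further probe of Kng1 fell (-0.33 ± 0.085, adjusted p = 0.00316) and the second probe of C3 rose (0.29 ± 0.089, adjusted p = 0.0121). Which transcripts these probes read was not tested.

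The wider set of pathway genes outside the 35 members moved in both directions. In coagulation and fibrinolysis 27 of 30 listed genes could be tested, of which 4 (14.8%) were higher and 12 (44.4%) lower, against 21.7% and 20.9% of all genes. The largest fall was that of Serpina5, the protein C inhibitor (-3.78 ± 0.45, adjusted p = 3.59e-07), which was well above background in 4 of 6 fasted mice and all mice on water. It was followed by Serpine2, a thrombin inhibitor (-1.12), Serpina10, the protein Z dependent inhibitor of factor Xa (-0.87), and Ggcx (-0.83 ± 0.068, adjusted p = 1.60e-09). Ggcx is the carboxylase that all vitamin K dependent clotting proteins need. Vkorc1, which recycles vitamin K for it, changed by -0.15 (adjusted p = 0.0270). Lman1 and Mcfd2, which together carry factors V and VIII out of the endoplasmic reticulum, changed by -0.77 (adjusted p = 4.22e-10) and -0.30 (adjusted p = 0.00123). Vkorc1, Lman1 and Mcfd2 were chosen after their values were seen.

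Among the rises were Thbd, the receptor on which thrombin activates protein C (1.19 ± 0.12, adjusted p = 5.22e-08), Fgl1, a fibrinogen-like protein (0.92), and Plaur, the urokinase receptor (0.52). Thbd and Plaur are known from endothelial and myeloid cells. Of 8 sinusoidal endothelial markers 3 were higher and 2 lower, and their sum was 49.4 to 61.5 on water and 45.8 to 63.8 in fasting. The part of other cell types in these rises was not tested.

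Of the wider complement list 30 of 31 genes could be tested, and 5 (16.7%) were higher and 7 (23.3%) lower. These shares are near the 21.7% and 20.9% of all genes, and the values below describe single genes. C1ra and C1s1, the proteases of the classical route, changed by -0.31 ± 0.048 (adjusted p = 1.19e-05) and -0.41 ± 0.063 (adjusted p = 1.16e-05). Itgam, a chain of complement receptor 3 (-1.30), and Cd55, which takes convertases apart (-0.43), completed the 4 largest falls. C7, which sits between C6 and C8 in the attack complex, went up, by 0.44 ± 0.077 (adjusted p = 6.27e-05), with no overlap between groups. C5ar1, a receptor of C5a (0.60), Cd46, a cofactor of factor I (0.56), and Fcna, a ficolin (0.36), also rose.

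The marker counts that follow are small, and 21.7% of all genes were higher and 20.9% lower. Hepatocyte markers were higher for 3 of 8 genes (37.5%) and lower for 0, with sums of 4817 to 5810 on water and 5439 to 6151 in fasting. Kupffer cell markers were higher for 2 of 8 genes (25%), with sums of 67.2 to 95.5 on water and 74.8 to 119.7 in fasting. Neutrophil markers were higher for 3 of 5 and their sum was 0.81 to 1.57 on water and 0.42 to 24.0 in fasting, so that some fasted livers held far more of this signal than others. Cholangiocyte markers were lower for 3 of 6 (7.39 to 11.8 on water, 3.88 to 10.01 in fasting). Stellate cell markers were lower for 3 of 8 and higher for 1, and their sum was 65.3 to 97.5 on water and 84.3 to 100.4 in fasting. Platelet markers were higher for 3 of 5, at sums of 0.89 to 1.19 on water and 1.01 to 1.86 in fasting. Red cell markers were lower for 2 of 6 and higher for 0, although 4 of 6 had positive values. Their sum was 399.4 to 574.0 on water and 432.9 to 930.9 in fasting. Lymphocyte markers were lower for 2 of 6, with sums of 3.03 to 3.73 on water and 2.49 to 3.45 in fasting. Of the platelet and neutrophil markers tested, 3 of 5 in each list were well above background on all 24 arrays. Their part in the changes of the members was not tested.

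The acute phase genes, which many complement and fibrinogen genes accompany in inflammation, were higher for 4 of 16 (25%, near the 21.7% of all genes) and lower for 1. The rises were Lcn2 (2.03), Lbp (1.64), Serpina3n (1.36) and Itih3 (0.80), and Saa4 changed by -0.98. Lcn2 is also made by neutrophils, whose marker sum ran from 0.42 to 24.0 over the fasted mice. Lcn2 was not compared with that sum mouse by mouse, and the part of neutrophils was not tested. Of 20 transcription factors and cytokine signalling genes of these pathways 8 (40%) were higher and 5 (25%) lower. Cebpd, a C/EBP factor of the acute phase (1.43 ± 0.15, adjusted p = 5.55e-08), Il1r1 (1.15), Il6ra (0.96) and the repressor Nr0b2 (0.94) rose most. Nr3c1, the glucocorticoid receptor (-0.71 ± 0.057, adjusted p = 8.66e-10), Foxa3 (-0.60), Il6st, the signalling chain of the interleukin 6 receptor (-0.44), and Nr1h4, the bile acid receptor (-0.27), were the largest falls.

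With 20% glucose in the water 1 of the 35 members was called, where 0.83% of all genes were called. This was F13b, which ranged from 4.72 to 4.93 (median 4.83) on water and from 4.54 to 4.67 (median 4.604) with glucose, so that the groups did not overlap. Groups did not overlap, on the lower side, for 1.42% of all genes. Its change was -0.22 ± 0.052 (adjusted p = 0.0408). The call rests on little: it was lost with the slide as a block (adjusted p = 0.0539), and leaving out 1 mouse ended it in 10 of 24 cases, with adjusted p from 0.0312 to 0.101. In fasting F13b moved the other way, to between 4.88 and 5.03.

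At an unadjusted p under 0.05 there were 7 of 35 members with glucose, F13b included, all with negative values, where 11.4% of all genes passed. The largest estimates were F11 at -0.36 ± 0.17 (adjusted p = 0.418) and C8b at -0.32 ± 0.13 (adjusted p = 0.333). F11 ranged from 4.12 to 4.68 with glucose, against 4.62 to 4.86 on water. F10 had no overlap between groups (8.04 to 8.12 with glucose, 8.15 to 8.28 on water) at -0.13 ± 0.049 (adjusted p = 0.247). C6 and C8a, which fell most in fasting, were at 0.048 (95% interval -0.30 to 0.39) and -0.0046 (-0.25 to 0.24). No gene of the wider pathway lists was called with glucose. Cps1, a urea cycle enzyme among the hepatocyte markers, was lower (-0.51 ± 0.097, adjusted p = 0.0106).

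With 20% fructose in the water 0 of the 35 members were called by limma, where 0.88% of all genes were. At an unadjusted p under 0.05 there were 11 of 35, all with negative values, where 15.9% of all genes passed. Normexp background correction and an intensity trend in the variance each called 2 of the members, and the authors' deposited series table called F11. Of the 35 members 31 had a negative value, with a median over coagulation of -0.07 and over complement of -0.12, against -0.012 over all genes. These medians shrank to -0.0098 and -0.033 under quantile normalization.

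The nearest to a call was Serpinc1 (antithrombin), at -0.18 ± 0.047 (adjusted p = 0.0710). It ranged from 9.51 to 9.66 with fructose and from 9.73 to 9.89 on water, with no overlap. Groups did not overlap, on the lower side, for 0.723% of all genes. F11 was next, at -0.63 ± 0.17 (adjusted p = 0.0745). Its fructose mice spread widely, from 3.38 to 4.63 (median 4.19), with an SD of 0.50 against 0.094 on water, so that some lay as low as the fasted mice and 1 lay within the range of the water group. Without fructose mouse 2 its change was -0.74 (adjusted p = 0.0383), and without fructose mouse 5 it was -0.72 (adjusted p = 0.0424).

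Serpind1 at -0.25 ± 0.075 and Serpinf2 at -0.21 ± 0.064 (adjusted p = 0.113 for each), Fgg at -0.20 ± 0.066 (adjusted p = 0.130) and Masp1 at -0.27 ± 0.093 (adjusted p = 0.148) followed. Pros1, which rose most in fasting, was at 0.045 (95% interval -0.14 to 0.23) with fructose and at 0.012 (-0.17 to 0.20) with glucose. Of the wider lists, Saa4, a constitutive serum amyloid A, was lower with fructose (-0.83 ± 0.20, adjusted p = 0.0452). Apoa1, among the hepatocyte markers, was also lower (-0.37 ± 0.077, adjusted p = 0.0254). The summed hepatocyte markers were 4378 to 4807 with fructose, below the 4817 to 5810 on water, and their part in the small negative values of the members was not tested. The fasted, glucose and fructose comparisons share the same 6 mice on water, so that values of these mice enter all 3.

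Fructose against glucose, which sets the sugars against each other in fed mice, gave 0 called members and 0% called genes by limma, and 0 members under each other setting tried. At an unadjusted p under 0.05 there were 4 of 35 members, where 7.8% of all genes passed. F13b was higher with fructose, at 0.20 ± 0.052 (unadjusted p = 0.000706, adjusted p = 0.427), and its groups did not overlap (4.69 to 4.93 against 4.54 to 4.67), as for 0.397% of all genes on the higher side. F11 differed by -0.27 (95% interval -0.62 to 0.087). Across the members the 95% intervals reached from 0.087 to 0.38 log2 units on either side of the estimate. These intervals are not adjusted for the number of genes tested, so differences between the sugars larger than this could also go uncalled. The interval of F13b, from 0.096 to 0.31, left out 0, and F13b was not called with 6 mice per group.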

How the data were processed

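Liver RNA of 24 mice, 1 array each, was read on 1-colour (Cy3) Agilent arrays. Per the file headers, the authors' scanner files come from Agilent Feature Extraction 10.10.1.1 software, with an intensity per spot that is background-subtracted and detrended within the array but not normalized between arrays. The deposited series table holds log2 values of 35967 probes; its normalization is not given in the sources used here, so it served as an alternative. The submitters' processing notes name limma without a version. Its column medians lay between 7.383 and 7.390.

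Control features and features flagged as outliers were dropped, the remaining spots of a probe were averaged on the log2 scale, and each array's 75th percentile was subtracted. A probe was kept if well above background on at least 6 of 24 arrays (36229 of 56605), and the brightest kept probe stood for a gene. Names came from RefSeq (GRCm38.p6) by accession for 15655 genes, by symbol for 1736 and by synonym for 103, and 6472 kept the array's name. Group means were fitted over all 24 arrays with limma 3.58.1 in R 4.3.3, with adjusted p-values over 23966 genes and 95% intervals. The fit was tested on simulated data. Precision is limited by the number of mice.

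The members and the lists of pathway genes and markers were chosen with earlier results of these data known. Full values are given for members called between fed groups, and in fasting for up to 5 rises and 5 falls per class. In the wider lists up to 4 rises and 4 falls are named. A few results outside the 35 members are not reported here. Alternatives were other background corrections, scalings, probe filters and probe summaries, the deposited table, the slide or replicate number as a block, single slides, array weights, other variance settings and each array left out. The labels do not state that replicate numbers pair the mice, so the main fit did not pair them.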

Additional observations from a re-analysis of the deposited data

Results flagged for a closer look

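Over the 35 members and 4 groups, 140 sets of 6 mice were searched for a mouse far from the other 5, by Dixon's ratio above its 95% critical value. Chance alone marks about 1 set in 20, and 8 of the 140 were marked. Fructose mouse 2 was marked for 3 genes, with the highest F7 (4.08, the next mouse at 3.74), the highest Hrg (8.05, next 7.44) and the highest Hc (6.71, next 6.31). Mouse 6 on water was marked for 3 genes, with the highest Fgb (10.02, next 9.85), the highest Serpinc1 (9.89, next 9.77) and the highest C3 (10.63, next 10.45). Fasted mouse 3 had the lowest C8b (5.51, next 6.01), and glucose mouse 6 the lowest Hc (6.01, next 6.35). The Hrg value of fructose mouse 2 lay within the range of the fasted mice, 7.95 to 8.54. Leaving out any of these mice did not end the call of C8b in fasting.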

How the results depend on the processing

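The count of members called in fasting was 19, and leaving out each of the 24 mice in turn gave 17 to 19. Coagulation members higher then ranged from 6 to 8 and lower from 2 to 2, and complement members higher from 0 to 0 and lower from 9 to 11. For glucose, fructose and fructose against glucose the ranges were 0 to 1, 0 to 1 and 0 to 0. Within slides 1, 2 and 3, with 2 mice per group, 6, 4 and 6 members were called in fasting, with 2, 2 and 2 coagulation members higher, 1, 0 and 1 lower, and 3, 2 and 3 complement members lower; these fits rest on fewer mice. Coagulation members higher were 5 under quantile normalization, median centring, the authors' deposited series table and a fit of only the 2 groups compared, against 8. Coagulation members lower were 6 under quantile normalization and the series table and 1 under median centring, against 2. With the mean of a gene's probes 1 complement member, C3, was higher. Signs turned for F2 under quantile normalization (-0.23) and in the series table (-0.13), and for Vtn (-0.24 and -0.22); the cause was not tested. For glucose 0 members were called under quantile normalization, median centring, no filter on dim probes, slide as a block, each of the 3 slides and only the 2 groups compared, against 1. For fructose 2 were called under normexp, 1 in the series table and 2 with an intensity trend, against 0.

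With the replicate number as a block, 19 members were called in fasting, 1 with glucose, 0 with fructose and 0 between the sugars, as without it. Deviations of mice with the same number in different groups correlated at 0.033 on average, against -0.0067 for mice with different numbers. Correlations above 0.1 were found for 9 of 36 and 25 of 180 such pairs. Of 24 mice, 8 matched best a mouse of their own number, where 36 of the possible pairs had the same number and 180 did not. These values carry no test, and the labels do not state whether the numbers pair the mice. All 35 members were well above background on every array.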
